A study of Oryctolagus cuniculus with 20 samples.

Results

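The solute carrier (SLC) genes described here are those whose name in the array files starts with SLC and a digit, with SLC2A1 left out. The rule found 25 genes among 19879 distinct gene names on the array, most of which are accession or transcript identifiers, and they were served by 74 of 43603 probes. The RNA came from the condylar cartilage, which covers the head of the jaw bone, of male rabbits (Oryctolagus cuniculus) aged 6 months. Each of the 5 groups held 4 arrays: rabbits with no treatment, and rabbits 1, 2, 4 or 8 weeks after surgery that produced internal derangement of the left temporomandibular (jaw) joint, TMJ ID in the labels. The design text assigns 4 untreated rabbits and 16 operated rabbits, the latter divided at random. No group had a sham operation, the untreated group carries no time, and the labels name no transgene or drug. Nothing beyond the design text says that each array is a separate rabbit, so the p-values measure the spread between these arrays.

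Solute carriers are membrane proteins that move ions, sugars, amino acids, nucleotides and other small molecules across the plasma membrane or the inner mitochondrial membrane. Many of them use the sodium gradient built by the sodium pump, and others exchange one ion for another. Cartilage has no blood vessels, so its cells, the chondrocytes, take up glucose, amino acids and sulfate from the matrix around them and export acid through such carriers.

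The levels below are log2 of the scanner's background-corrected intensity minus the 75th percentile of the same array, so 0 is the brightness of that percentile. Levels of different probes cannot be set against each other, since probes bind with unequal strength. Per array, the 75th percentile ran from 174.1 to 641.8 intensity units and the share of spots well above background from 49.1% to 66.4%, both lowest on 1-week replicate 4. The control and 2-week arrays were scanned on 1 day and the 1-, 4- and 8-week arrays on another, and each group filled a slide of its own. Scan day therefore cannot be told apart from group when 1, 4 or 8 weeks is compared with control, and slide cannot be told apart from group anywhere. Of the cartilage markers, COL2A1, ACAN, SOX9 and CNMD could be matched to probes, and all 4 were measured. Markers of skeletal muscle moved with the groups: the summed linear level of 9 muscle genes, in multiples of each array's 75th percentile, was 91.6 and 519 on control replicates 1 and 2, 10.7 and 4.37 on control replicates 3 and 4, and 1.19 to 3.78 on all 16 operated arrays. Calls were therefore also made without control replicates 1 and 2, and the effect is given beside each call. These fits do not test the part of muscle. They leave fewer control arrays, and those left still had higher muscle sums than every operated array. The summed level of the cartilage markers was 374 to 748 in control and overlapped with control in every operated group. It was 512 to 2500 at 1 week, with the top on replicate 4, and 194 to 507 at 2 weeks. At 4 weeks it was 658 to 1370 and at 8 weeks 150 to 828. Their differences from control are given beside SLC34A1 and SLC5A2.

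**Figure D1:**
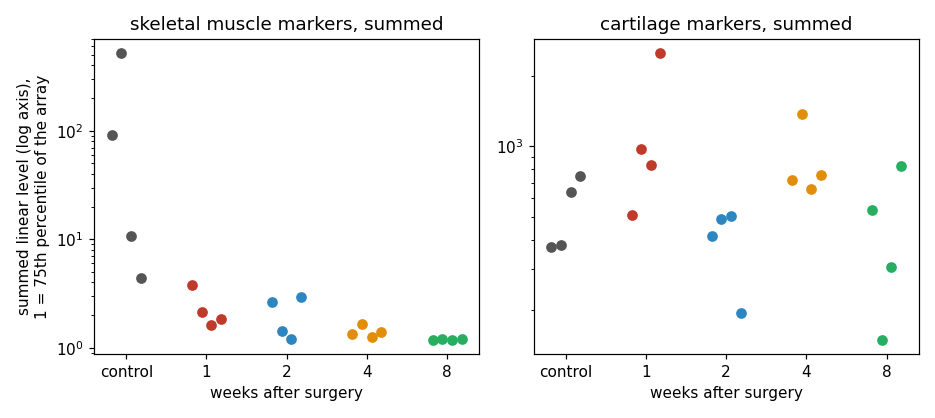
Summed linear level of the 9 skeletal muscle markers (left) and the 4 cartilage markers (right) on each of the 20 arrays, on log axes where 1 is the array's 75th percentile; each point is 1 array. Muscle markers were highest on the 4 control arrays, from 4.37 to 519, and the cartilage sum ran from 150 to 2500 over all arrays.

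Probes that lie within coding sequence are shown first for called genes, because what a probe's value measures is the binding of RNA to its 60 bases. They are printed 5′ to 3′ as the array file lists them. SLC34A1 and SLC4A2 each rest on a single probe, as does SLC5A2, whose probe at base 2174 is not shown. SLC25A4 has 5 probes that start at bases 846 to 850 of the transcript and so read nearly the same stretch; the first and the last are shown, with the 56 bases they share in capitals. SLC25A24 has probes at separate places, and its value comes from the downstream probe at base 3193, which is not shown. The pair from the upstream part of the transcript, which carries no call, is shown because its values differed from those of the downstream probes, which do.
SLC34A1, bases 1310 to 1369: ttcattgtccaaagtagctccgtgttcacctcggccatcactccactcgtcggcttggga
SLC4A2, bases 2928 to 2987: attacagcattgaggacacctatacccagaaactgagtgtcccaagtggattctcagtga
SLC25A4, bases 846 to 905: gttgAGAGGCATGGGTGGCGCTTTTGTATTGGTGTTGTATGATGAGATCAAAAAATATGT
SLC25A4, bases 850 to 909: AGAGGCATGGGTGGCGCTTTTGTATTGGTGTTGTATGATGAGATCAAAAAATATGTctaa
SLC25A24, bases 1305 to 1364: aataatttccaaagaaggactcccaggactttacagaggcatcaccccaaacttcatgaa
SLC25A24, bases 1378 to 1437: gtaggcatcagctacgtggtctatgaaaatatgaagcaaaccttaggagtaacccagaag

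Of the 25 genes, 14 were measured, meaning that some group had 3 or 4 arrays on which a probe stood clear of background by the scanner's flag; over the whole array 61.7% of probes met this rule. Both mitochondrial carriers were measured, SLC25A4 and SLC25A24, as were both regulators that the naming rule takes in, NHERF1 and NHERF2. Of the 3 sugar and inositol carriers, SLC5A2 and SLC5A11 were measured and SLC5A10 was not. Of the 7 amino acid and neurotransmitter carriers, SLC1A5, SLC3A2, SLC6A8 and SLC6A12 were measured and SLC1A1, SLC3A1 and SLC7A9 were not. Of the chloride and bicarbonate exchangers, SLC4A2 was measured and SLC26A3 was not. Of the pair of phosphate carriers, SLC34A1 was measured and SLC17A1 was not. By family number, 5 genes were grouped as organic ion, drug and peptide carriers. Of these only SLC16A10, itself a carrier of aromatic amino acids, was measured. SLC10A1, SLC10A2, SLC22A2 and SLC22A7 were not, nor was the urea carrier SLC14A2. The brightest probes of SLC10A1, SLC14A2, SLC22A2, SLC22A7 and SLC26A3 were well above background on 0 of 20 arrays, and that of SLC5A10 on 7 of 20, the most among the genes not measured. Most of these genes serve above all kidney, liver and gut, where they take up bile acids (SLC10A1, SLC10A2), organic cations and anions (SLC22A2, SLC22A7), chloride (SLC26A3) and cystine (SLC3A1 with SLC7A9). A dim signal is a statement about these probes at this brightness, and no level is given for them.

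**Figure D2:**
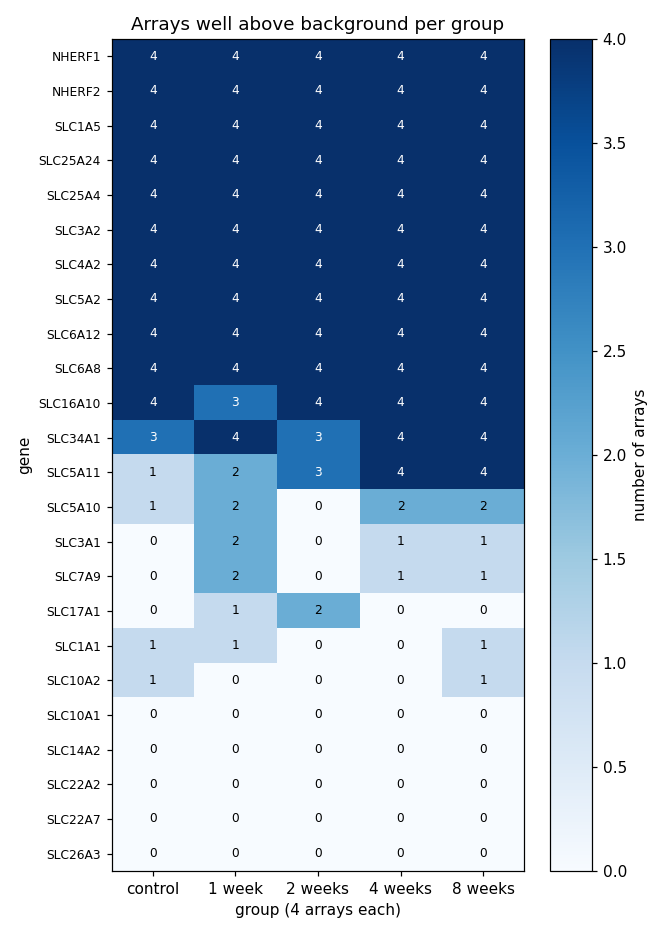
Number of arrays, of 4 per group, on which the probe used for each of 24 genes was well above background. The upper 13 rows reach 3 or 4 arrays in at least 1 group and the lower 11 rows stay at 2 or fewer in every group.

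The F test over the 5 groups (limma, Benjamini-Hochberg adjustment over all 26905 measured probes) called 3 of the 14 measured genes, SLC34A1 (adjusted p = 0.0188), SLC4A2 (adjusted p = 0.0224) and SLC5A2 (adjusted p = 0.0299). This is 21.4% of the members, beside 15.8% of all measured probes. The next in order were SLC25A24 (adjusted p = 0.0559), SLC25A4 (0.0842) and SLC6A8 (0.0876). Within the 1-, 4- and 8-week groups alone, which share a scan day, the F test called 0 of the 14, with SLC4A2 at adjusted p = 0.0939, beside 0.349% of all probes. Without control replicates 1 and 2 it called SLC4A2 alone (adjusted p = 0.022), beside 9.17% of all probes, with SLC34A1 at 0.0796 and SLC5A2 at 0.126. The F test lost SLC5A2 without control replicate 1 or 2 (adjusted p = 0.0703 and 0.0701), 1-week replicate 2 (0.0563) or 4-week replicate 2, 3 or 4 (0.0544, 0.059 and 0.0585), and SLC4A2 without 1-week replicate 2 (0.0561) or 8-week replicate 3 or 4 (0.053 and 0.0507). It gained SLC25A24 without 1-week replicate 4 (0.0462) or 4-week replicate 2 or 4 (0.0427 and 0.0433), SLC25A4 without control replicate 4 (0.0373), and SLC6A8 without 2-week replicate 1 (0.0473) or 8-week replicate 1 (0.0401). With normexp background correction and an offset of 50 intensity units in place of the scanner's correction, 0 of the 14 were called in any comparison. The F test then called 80 probes in all in place of 4256 (0.297% in place of 15.8%). The offset by itself shrinks the log2 differences of dim probes. The adjusted p of the F test also rose for bright members. It went from 0.0842 to 0.91 for SLC25A4 (control mean 6.58) and from 0.0559 to 0.887 for SLC25A24 (control mean 3.35). The part of the offset in the lost calls was not tested.

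The phosphate carrier SLC34A1 and the glucose carrier SLC5A2 were the 2 members called higher than control, both at 1 week and again at 4 weeks. SLC34A1 is best known for reclaiming phosphate from the filtrate in the proximal tubule of the kidney, and SLC5A2 for reclaiming glucose there together with sodium. At 1 week 3 of the 14 members were called (21.4%), beside 13.9% of all probes: SLC34A1 and SLC5A2 higher (9.75% of all probes were called higher) and SLC4A2 lower (4.13%). At 4 weeks 2 of 14 were called (14.3%), both higher, beside 8.58% of all probes and 6.43% called higher.

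SLC34A1 was dim. Its level was -4.50, -3.56, -3.27 and -3.32 on control replicates 1 to 4 and -2.62, -3.15, -2.16 and -1.55 on the 1-week arrays. It was -3.40, -2.73, -3.61 and -3.35 at 2 weeks, -2.24, -2.07, -2.46 and -2.46 at 4 weeks, and -2.98, -3.33, -2.56 and -2.65 at 8 weeks. All 1-week and all 4-week arrays thus lay above all control arrays, while the 2-week and 8-week arrays overlapped with control, whose lowest array was replicate 1. The probe passed the background flag on 3 of 4 control arrays, 3 of 4 at 2 weeks and all arrays of the other groups, so its lower levels rest in part on signals close to background. From -3.66 ± 0.57 (SD, n = 4) in control, SLC34A1 rose by 1.29 at 1 week (SE 0.31, 2.45-fold, adjusted p = 0.0107) and by 1.35 at 4 weeks (SE 0.31, 2.55-fold, adjusted p = 0.0119). The difference was 0.39 at 2 weeks (adjusted p = 0.868) and 0.78 at 8 weeks (adjusted p = 0.113). Without control replicates 1 and 2 the differences were 0.93 at 1 week (adjusted p = 0.147) and 0.99 at 4 weeks (adjusted p = 0.172), and neither was called. The part of the muscle signal of those arrays in the result was not tested. The 4 cartilage markers had a median difference from control of 1.33 at 1 week, -0.37 at 2 weeks, 0.78 at 4 weeks and -0.13 at 8 weeks. This median too was higher in the groups where SLC34A1 and SLC5A2 were called, though SOX9 at 1 week was the only cartilage call against control. The part of the cartilage markers in these results was not tested.

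SLC5A2 was more scattered. Its level was -2.57, -2.32, -0.87 and -1.45 on the control arrays and -0.42, 0.54, -0.99 and 1.13 at 1 week. It was -0.31, -1.44, -0.55 and -1.53 at 2 weeks, -0.87, 0.18, 0.51 and 0.45 at 4 weeks, and -0.54, -1.40, -1.89 and -1.25 at 8 weeks. Control replicates 1 and 2 were the lowest of all 20 arrays. Control replicate 3 overlapped with the lowest 1-week array and met the lowest 4-week array at -0.87. The probe was well above background on all 20 arrays. SLC5A2 rose by 1.87 at 1 week (SE 0.48, 3.65-fold, adjusted p = 0.0157) and by 1.87 at 4 weeks (SE 0.48, 3.65-fold, adjusted p = 0.0226), from -1.80 ± 0.79 (SD, n = 4) to 0.06 ± 0.95 and 0.07 ± 0.64. The difference was 0.85 at 2 weeks (adjusted p = 0.752) and 0.53 at 8 weeks (adjusted p = 0.519). Between 8 weeks and either 1 week or 4 weeks it was -1.33 (SE 0.48), at adjusted p = 0.229 and 0.273. Without control replicates 1 and 2 the rise was 1.22 at 1 week (adjusted p = 0.243) and 1.23 at 4 weeks (adjusted p = 0.312). The loss of control replicate 1 alone also ended both calls, at adjusted p = 0.0596 and 0.084, as did that of control replicate 2, at 0.0534 and 0.0735, with rises of 1.61 to 1.70. The 1-week call also ended without 1-week replicate 4 (1.51, adjusted p = 0.0577). The 4-week call also ended without 4-week replicate 2, 3 or 4 (1.83, 1.72 and 1.74, adjusted p = 0.0634, 0.0675 and 0.0725).

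The related sodium-coupled carrier SLC5A11, which takes up myo-inositol, was not called. It passed the background flag on 1 of 4 control arrays, 2 at 1 week, 3 at 2 weeks and all at 4 and 8 weeks. Its level ran from -4.36 to -3.28 in control and from -3.23 to -2.66 at 4 weeks, with no overlap, and the difference of 0.90 (SE 0.38) had adjusted p = 0.155. Without 1-week replicate 4 the F test called SLC5A11 (adjusted p = 0.0163, against 0.335 with it), as did the comparison of 4 weeks with 1 week (1.26, SE 0.27, adjusted p = 0.0145). That the probe entered the test at all rests on the later groups, where it was brighter.

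**Figure D3:**
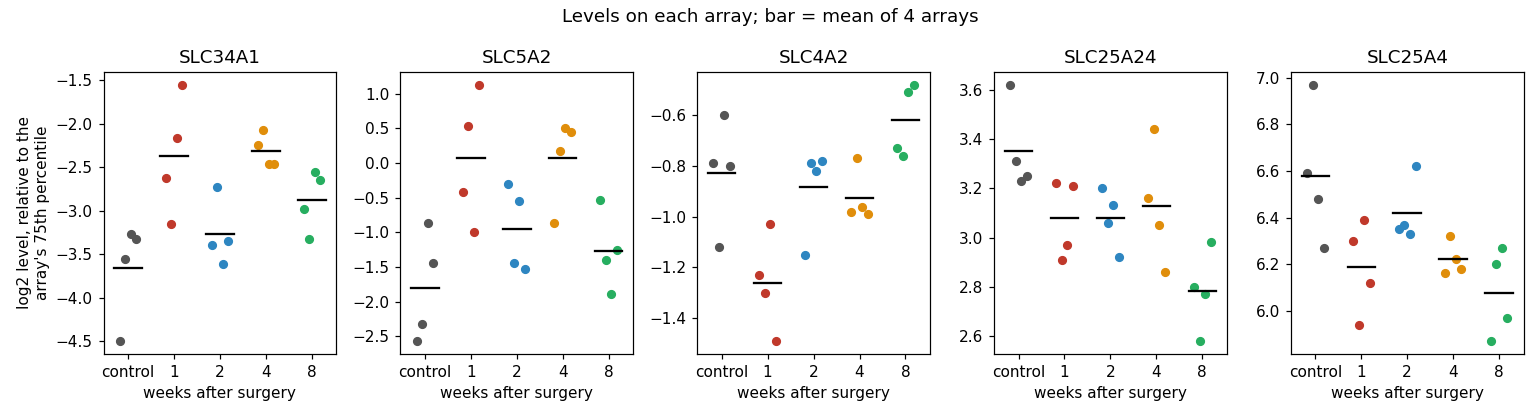
Level of the 5 called genes on each of the 20 arrays (points, 4 per group) with the mean of each group (bars), in log2 units relative to the array's 75th percentile; the vertical axes differ between panels. SLC34A1 and SLC5A2 had their highest means at 1 and 4 weeks, SLC4A2 its lowest at 1 week, and SLC25A24 and SLC25A4 their lowest at 8 weeks.

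SLC4A2, which exchanges chloride for bicarbonate across the plasma membrane, was called lower at 1 week. SLC4A2 was -0.79, -1.12, -0.60 and -0.80 on the control arrays and -1.23, -1.30, -1.03 and -1.49 at 1 week. It was -1.15, -0.79, -0.82 and -0.78 at 2 weeks, -0.98, -0.77, -0.96 and -0.99 at 4 weeks, and -0.73, -0.76, -0.51 and -0.48 at 8 weeks. The 1-week arrays were lower than all 4-week and 8-week arrays, and control replicate 2 fell among them. SLC4A2 fell by 0.43 at 1 week (SE 0.13, 1.35-fold lower, adjusted p = 0.0335) from -0.83 ± 0.22 (SD, n = 4). From 1 week to 8 weeks, both on the same scan day, the difference was 0.64 (SE 0.13, 1.56-fold) with no overlap; its unadjusted p was 0.00011 and its adjusted p 0.0798, which misses the threshold. Without control replicates 1 and 2 SLC4A2 was the single member still called at 1 week, where it fell by 0.56 (adjusted p = 0.0394). Yet the 1-week call of the fit with all arrays ended with the loss of any 1 of control replicates 1, 3 or 4 (adjusted p = 0.0795, 0.104 and 0.0574) or of 1-week replicates 2 or 4 (adjusted p = 0.0681 and 0.0965). The difference then stayed between -0.42 and -0.36.

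The scaffold proteins NHERF1 and NHERF2, listed in the array files as SLC9A3R1 and SLC9A3R2, hold ion carriers at the membrane and carry no solute themselves. Neither was called. NHERF2 ran from -0.06 to 0.58 in control and from 0.46 to 0.68 at 8 weeks, a difference of 0.30 (SE 0.16, adjusted p = 0.238). NHERF1 differed from control by -0.34 at 1 week, 0.33 at 2 weeks, 0.13 at 4 weeks and 0.24 at 8 weeks (SE 0.31), with all 2-week arrays above all control arrays. Its 5 overlapping probes at bases 1831 to 1835 had the same sign as each other at 1, 2 and 8 weeks, whereas a separate probe at base 1224 gave -0.54 at 2 weeks, -0.79 at 4 weeks and -0.37 at 8 weeks. The value of NHERF1 thus depends on the probe.

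Both mitochondrial carriers were called lower at 8 weeks, the 2 members of 14 called there (14.3%), beside 12.8% of all probes and 4.23% called lower. SLC25A4, listed in the array files as SLC25A5, exchanges ADP for ATP across the inner mitochondrial membrane and is abundant in heart and skeletal muscle. SLC25A24, listed as SLC25A23, exchanges magnesium-bound ATP for phosphate and is controlled by calcium.

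SLC25A24 was 3.62, 3.31, 3.23 and 3.25 on the control arrays and 2.80, 2.58, 2.77 and 2.98 at 8 weeks, with no overlap. It ran from 2.91 to 3.22 at 1 week, 2.92 to 3.20 at 2 weeks and 2.86 to 3.44 at 4 weeks, so all arrays at 1 and 2 weeks were also below control. SLC25A24 fell by 0.57 at 8 weeks (SE 0.13, 1.48-fold lower, adjusted p = 0.00902) from 3.35 ± 0.18 to 2.78 ± 0.16 (SD, n = 4). At 1, 2 and 4 weeks the differences were -0.28, -0.28 and -0.22 and were not called. These values come from the probe at base 3193. The other downstream probe, at base 3149, fell by 0.48 at 1 week (adjusted p = 0.026) and by 0.43 at 8 weeks (adjusted p = 0.0445), and was called by the F test (adjusted p = 0.00364). It gave 0.24 at 2 weeks and 0.01 at 4 weeks, so the downstream probes differed from each other there. At 8 weeks the upstream probes printed above, at bases 1378 and 1305, gave -0.28 (adjusted p = 0.26) and -0.09 (adjusted p = 0.782). At 1 week the upstream pair gave 0.09 and 0.16. The mean of the 4 probes gave -0.35 at 8 weeks (adjusted p = 0.0841), which is not called, and without control replicates 1 and 2 the chosen probe gave -0.46 (adjusted p = 0.147).

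SLC25A4 was at 6.59, 6.97, 6.48 and 6.27 on the control arrays and 5.87, 6.20, 6.27 and 5.97 at 8 weeks. It ran from 5.94 to 6.39 at 1 week, 6.33 to 6.62 at 2 weeks and 6.16 to 6.32 at 4 weeks. The highest array was control replicate 2, which also had the highest muscle sum, and control replicate 4, with the lowest muscle sum among controls, met the highest 8-week array at 6.27. SLC25A4 fell by 0.50 at 8 weeks (SE 0.14, 1.41-fold lower, adjusted p = 0.0271) from 6.58 ± 0.30 to 6.08 ± 0.19 (SD, n = 4). The differences were -0.39 at 1 week (adjusted p = 0.0764), -0.16 at 2 weeks and -0.36 at 4 weeks (adjusted p = 0.131). All 5 of its probes gave the same sign at each time, from -0.57 to -0.50 at 8 weeks; they overlap and are not independent. Without control replicates 1 and 2 the fall was 0.29 (adjusted p = 0.359), and without control replicate 2 alone 0.37 (adjusted p = 0.105). The loss of control replicate 1, 8-week replicate 1 or 8-week replicate 4 also ended the call (adjusted p = 0.065, 0.0936 and 0.0716), with differences of -0.49, -0.43 and -0.46. Without control replicate 4, SLC25A4 was also called at 1 week (-0.49, adjusted p = 0.0284) and at 4 weeks (-0.46, adjusted p = 0.0493). The part of the muscle signal in the levels of SLC25A4 was not tested. In bulk RNA, fewer cells of a type and less RNA per cell cannot be told apart. Close relatives of SLC25A4 share much of its coding sequence, and whether their RNA binds these probes was not tested.

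**Figure D4:**
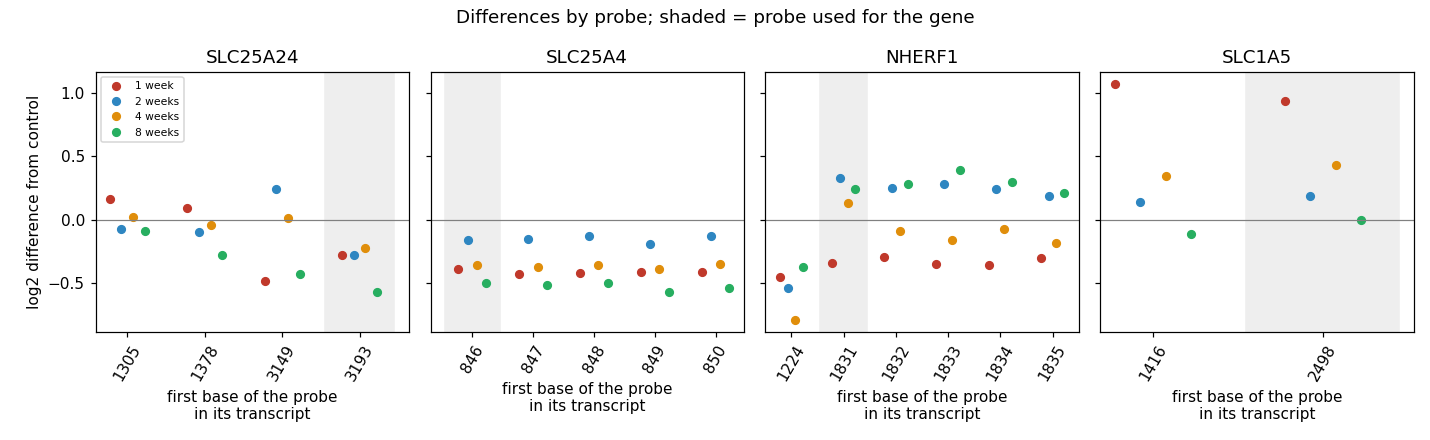
Log2 difference from control at 1, 2, 4 and 8 weeks for each kept probe of 4 genes, in order of the probe's first base in its transcript; shading marks the probe used for the gene. The 5 probes of SLC25A4 gave nearly equal values, whereas the probes of SLC25A24 and the separate probe of NHERF1 did not.

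The carriers of amino acids and related molecules gave no call by the probe that stands for the gene. SLC1A5, which brings glutamine and other neutral amino acids into the cell, came closest at 1 week. It was 4.25, 4.52, 4.51 and 4.05 on the control arrays and 4.66, 5.16, 4.58 and 6.66 at 1 week, all higher, with replicate 4 far above the rest. The difference was 0.93 (SE 0.35, 1.90-fold, adjusted p = 0.0889). Its other probe, at base 1416, gave 1.07 and passed the threshold (adjusted p = 0.0466). Without 1-week replicate 4 the difference of SLC1A5 was 0.46 (adjusted p = 0.256), and without 1-week replicate 1 or 3 it was called, at 1.13 and 1.16 (adjusted p = 0.0473 and 0.0444). At 8 weeks the 2 probes gave 0 and -0.11.

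SLC6A8 imports creatine, the energy buffer of muscle and brain. It was 3.02, 2.62, 3.05 and 2.79 on the control arrays, 2.35, 2.40, 2.63 and 2.02 at 1 week, and 2.63, 3.06, 3.61 and 3.10 at 8 weeks. At 1 week the difference from control was -0.52 (SE 0.20, adjusted p = 0.0891), and from 1 week to 8 weeks it was 0.75 (SE 0.20, 1.68-fold, adjusted p = 0.13), with arrays that met at 2.63. SLC6A12, which imports betaine and GABA, an osmolyte and a neurotransmitter, had a control range of -3.16 to -2.65. All 2-week arrays (-2.26 to -2.03) and all 8-week arrays (-2.59 to -2.08) lay above it, with differences of 0.71 (SE 0.28, adjusted p = 0.502) and 0.39 (adjusted p = 0.393). On 1-week replicate 4 it was -1.56, against -3.24 to -3.04 on the other arrays of that group. Without that array the F test called SLC6A12 (adjusted p = 0.000931, against 0.213 with it), and it was 0.91 higher at 4 weeks than at 1 week (SE 0.16, adjusted p = 0.00414). SLC3A2, the heavy chain that brings several amino acid carriers to the cell surface, stayed within -0.05 to 0.87 on all 20 arrays, with group means from 0.13 to 0.44. SLC16A10, a carrier of aromatic amino acids, ran from -2.73 to -1.39, with group means from -2.36 to -1.95.

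**Figure D5:**
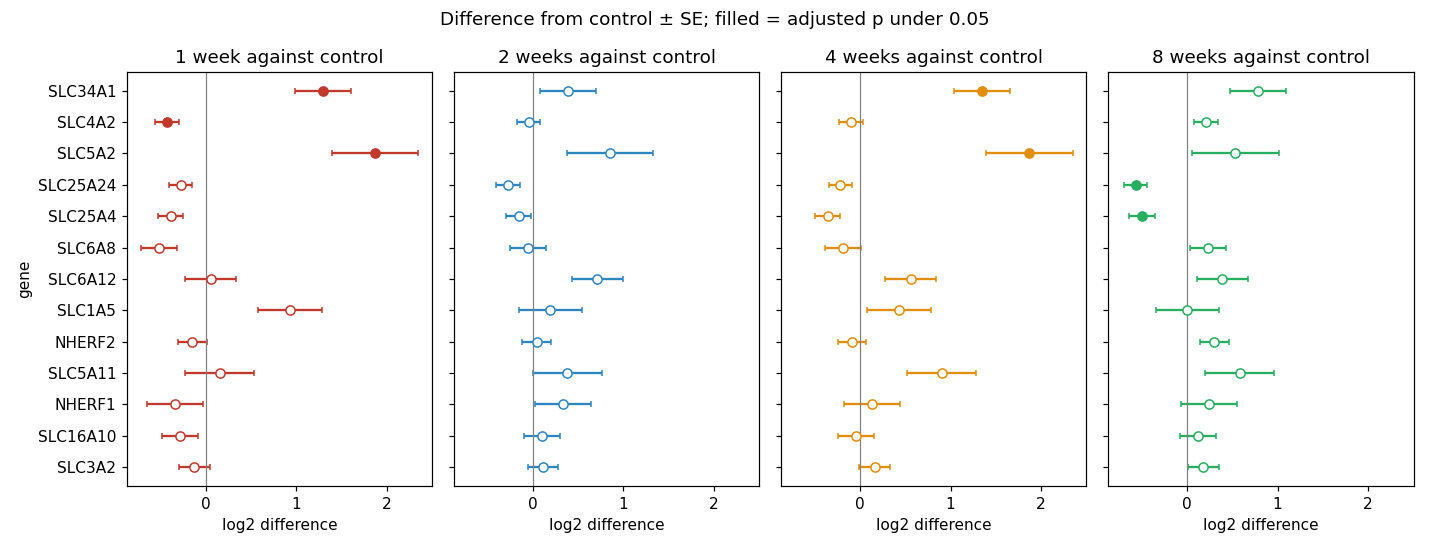
Log2 difference from control with its SE for 13 measured genes at 1, 2, 4 and 8 weeks (panels), in order of the F test; filled points have an adjusted p under 0.05. The filled points are SLC34A1 and SLC5A2 above 0 at 1 and 4 weeks, SLC4A2 below 0 at 1 week, and SLC25A24 and SLC25A4 below 0 at 8 weeks.

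At 2 weeks limma called 0 of 14 members, beside 0.457% of all probes; SLC6A12 was the 1 member with an unadjusted p under 0.05, which 7.78% of all probes reached. This comparison is the one against control that lies within a scan day. Between operated groups limma called 0 of 14 members in each comparison, beside 1.08% of all probes for 4 weeks against 1 week, 0.0149% for 8 against 1 and 0.565% for 8 against 4. Unadjusted p-values were under 0.05 for 1, 7 and 5 of the 14 members, beside 12.3%, 14.6% and 13% of all probes. Over the 14 genes the median log2 difference from control was -0.21 at 1 week, 0.15 at 2 weeks, 0.07 at 4 weeks and 0.22 at 8 weeks, where the median of all measured probes was 0.03 to 0.04. At 1 week 5 members lay above 0 and 9 below, where 52.9% of all probes lay above. At 8 weeks 12 lay above and 2 below, where 54.5% of all probes lay above; the 12 include SLC1A5, whose difference rounds to 0. The 2 below at 8 weeks were the mitochondrial carriers. Arrays of the 2 groups did not overlap for 3, 3, 2 and 2 members at 1, 2, 4 and 8 weeks against control, beside 16.8%, 5.69%, 17.7% and 22.5% of all probes, and for 1, 3 and 3 members at 4 weeks against 1, 8 against 1 and 8 against 4, beside 6.46%, 8.07% and 12%.

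The array also carried partners of the carriers, from a list of pumps, channels and chaperones. Of 3 measured beta subunits of the sodium pump, which builds the gradient that SLC5A2 and SLC34A1 use, ATP1B2 rose by 1.10 at 8 weeks (SE 0.34, adjusted p = 0.0432). The difference was 0.78 without control replicates 1 and 2 (adjusted p = 0.387), and its call was kept in 1 of the 8 fits that each leave out 1 array of either group, the one without control replicate 3 (1.46, adjusted p = 0.00494; the others 0.91 to 1.15, adjusted p = 0.076 to 0.145). ATP1B1 and ATP1B3 were not called at any time. Of 3 measured ABC pumps, ABCB11, the bile salt export pump, rose by 1.83 at 1 week (SE 0.35, adjusted p = 0.00195), by 1.46 at 4 weeks (adjusted p = 0.0162) and by 1.67 at 8 weeks (adjusted p = 0.00506). At 2 weeks, on the same scan day as control, the difference was 0.67 (adjusted p = 0.713). For the 3 calls, scan day cannot be told apart from group. ABCB11 stayed called at all 3 times without control replicates 1 and 2 (2.03, 1.65 and 1.86; adjusted p = 0.00314, 0.0225 and 0.0089), and without control replicate 1 alone it was not called at 4 weeks (1.24, adjusted p = 0.0653). ABCB1 and ABCG2 were not called. BSG, the chaperone of lactate carriers, and the water channel AQP1 were not called. Neither of 2 carbonic anhydrases and none of 3 proton pump genes that could be matched to probes was measured. No probe could be matched by symbol to the 4 listed organic anion carriers.

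The marker lists moved as follows. Of the 9 measured muscle genes, 7 were called lower at 1 week, 3 at 2 weeks, 8 at 4 weeks and 9 at 8 weeks; without control replicates 1 and 2 these were 4, 1, 5 and 5. Of the 4 cartilage genes, SOX9, a transcription factor of chondrocytes, rose by 1.63 at 1 week (SE 0.44, adjusted p = 0.0192), and no other cartilage gene was called against control. The rise of SOX9 was 1.66 without control replicates 1 and 2 (adjusted p = 0.108), and the loss of 1-week replicate 4 (1.21, adjusted p = 0.0657), control replicate 1 (1.53, adjusted p = 0.0578) or control replicate 3 (1.45, adjusted p = 0.0606) also ended its call. CNMD, a cartilage protein that holds back blood vessels, differed by 2.31 at 1 week (SE 0.83, adjusted p = 0.0749) and 2.39 at 4 weeks (adjusted p = 0.0866) and by -0.35 and -0.24 at 2 and 8 weeks. The F test called CNMD (adjusted p = 0.0341) and SOX9 (adjusted p = 0.0404), and neither without control replicates 1 and 2 (adjusted p = 0.0659 and 0.093). Of the 5 macrophage and osteoclast genes, 1 was called higher at 1 week, 2 lower at 4 weeks and 1 higher at 8 weeks, and 0 at each time without control replicates 1 and 2. No measured erythroid (2), neutrophil (1), bone (1) or endothelial (3) marker was called against control, and the 1 fat marker matched to a probe was not measured. The part of these cells in the differences of the solute carrier genes was not tested. The comparisons without control replicates 1 and 2 cannot decide it. The control arrays left had muscle sums of 10.7 and 4.37, against 1.19 to 3.78 on the operated arrays.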

How the data were processed

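The deposited scanner files give the intensity of each spot, produced by Agilent Feature Extraction 10.7.1.1 (protocol GE1_107_Sep09), per the file headers, with background subtracted and the dimmest signals raised to a floor above 0. A value table that the authors deposited (intensity as well) equalled the scanner values over 43603 probes, so it is linear and not centred (column medians 28.3 to 90.2); the columns of the 8-week group were interchanged within that group, so its replicate numbers are those of the scanner files. Outlier spots were left out, spots of a probe averaged, and log2 intensity taken minus each array's 75th percentile. A probe was kept if well above background on at least 3 of 4 arrays of a group (26905 probes). Group means over 20 arrays were fitted with limma 3.58.1 (R 4.3.3), with two-sided p-values adjusted by Benjamini-Hochberg over kept probes and a call at adjusted p under 0.05. Each gene is represented by the kept probe with the highest mean. Symbols were updated through RefSeq accessions (24 genes) or symbol (1 gene). Called genes are given array by array, other measured genes by range, unmeasured genes by name; 1 gene enters the counts but is not reported here. The script was tested on simulated data. Members and lists were chosen with earlier results of these data known. Alternatives are listed in the closing section; partner and marker genes were refitted without arrays after the data were seen. Precision is limited by having 4 arrays in a group.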

Additional observations from a re-analysis of the deposited data

Results flagged for a closer look

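In 63 sets of 4 arrays, each a measured gene in a group where it was well above background on 3 or 4 arrays, a single array stood apart by Dixon's criterion (95% critical value of the gap over the range) in 6; chance gives about 1 in 20 sets. SLC4A2 stood apart at -1.15 on 2-week replicate 1 (the others from -0.82 to -0.78) and at -0.77 on 4-week replicate 2 (the others from -0.99 to -0.96). SLC6A8 stood apart at 2.33 on 2-week replicate 1 (the others from 2.93 to 3). SLC25A4 stood apart at 6.62 on 2-week replicate 4 (the others from 6.33 to 6.37), and SLC16A10 at -1.65 on 8-week replicate 3 (the others from -2.08 to -2.01). SLC6A12 stood apart at -1.56 on 1-week replicate 4 (the others from -3.24 to -3.04), the array with the lowest signal.

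NHERF1 lay above the control mean on all 2-week arrays and below it on all 1-week arrays. The gap between those group means was 0.67 (0.33 against -0.34). The difference was not tested. The separate probe of NHERF1 at base 1224 gave -0.54 at 2 weeks and -0.45 at 1 week.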

How the results depend on the processing

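No called difference of a solute carrier gene changed sign under any alternative that was run, and the calls were sensitive to several. The counts of called members at 1 week, 4 weeks, 8 weeks and in the F test were 3, 2, 2 and 3. With normexp background correction they were 0 in all 4, where the calls over all probes were 44, 28, 34 and 80 in place of 3734, 2308, 3442 and 4256. Without control replicates 1 and 2 they were 1, 0, 0 and 1, with 1481, 777, 965 and 2468 calls over all probes. With only the 2 groups compared in the fit, the count was 0 at 1 week (1421 over all probes) and 1 at 8 weeks (3335). With each array centred on its median it was 5 at 1 week (3709) and 5 in the F test (5209); at 8 weeks it was 0 after quantile normalization (2575), 1 with no filter on dim probes (2965) and 1 with the mean of a gene's probes (3434). In the F test over 1 scan day it was 0 (94). Leaving out each array in turn gave 1 to 4 members at 1 week, 1 to 3 at 4 weeks, 1 to 2 at 8 weeks, 0 to 2 for 4 weeks against 1 week and 1 to 6 in the F test, where the lowest count came without 1-week replicate 2 and the highest without 1-week replicate 4. The count stayed 0 under every alternative at 2 weeks, for 8 weeks against 1 week and for 8 weeks against 4 weeks. Replicate numbers did not pair the arrays (median correlation of same-numbered arrays 0.01 over 40 pairs); with them as a replicate block the counts were 3, 0, 2 and 2 at 1, 2, 4 and 8 weeks and 2 in the F test, where SLC5A2 had adjusted p = 0.0564. Array weights by group, chosen after seeing the data because the 1-week arrays spread more, gave 2, 2 and 2 at 1, 4 and 8 weeks and 4 in the F test. Median centring moved the median difference of all probes to -0.11, -0.10 and -0.12 at 1, 4 and 8 weeks, and the share of calls that were higher from 70.3% to 50.4%, from 75% to 53.8% and from 66.9% to 38.8%. The cause of these changes was not tested. The dimmest called probe, SLC34A1, gave 0.45 at 1 week and 0.27 at 4 weeks under normexp, against 1.29 and 1.35. For the bright members SLC25A4 and SLC25A24 the adjusted p of the F test was 0.91 and 0.887 under normexp, against 0.0842 and 0.0559. The normexp fit added an offset of 50 intensity units, which by itself shrinks the log2 differences of dim probes. Its part in the lost calls was not tested apart from that of the background correction.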

Other observations

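Some carriers and carrier regulators on the array fall outside the naming rule. RSC1A1, a regulator of sodium-coupled sugar uptake, was measured by all 5 of its probes and was 0.34 above control at 1 week (SE 0.16, adjusted p = 0.173) and 0.38 at 8 weeks (adjusted p = 0.129), neither called. The anion exchanger SLC26A7 was measured by 1 of 5 probes and was called in no comparison. SLCO1C1 had no measured probe.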
